A study of Mus musculus with 4 samples.

Results

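A set of 10 genes of the canonical Wnt pathway was examined in cultured primary (1°) mouse oligodendroglial cells (OGCs). They were found by their symbols among the 53465 genes of the count files, and all 10 were listed. Ctnnb1, Tcf7l2 and Lef1 encode the effectors of the pathway, Apc encodes a scaffold that restrains it, and Axin2, Nkd1, Apcdd1, Rnf43, Notum and Wif1 encode feedback inhibitors and targets. RNA-Seq was performed on cells from the forebrain of mice at postnatal days 2 to 4, after mixed glial culture, shake-off, microglial depletion and 3 days of differentiation (3ddiff). There were 2 libraries of ctrl cells (Zfp276 flox/flox) and 2 of Zfp276cko cells (Sox10::Cre tg, Zfp276 flox/flox), and each library came from a separate preparation of pooled cells from 3 mice.

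Both genotypes thus carried the Zfp276 allele with loxP sites, in a mixed C3H x C57Bl/6J background. The BAC transgene Sox10::Cre drives recombination from the OPC stage on and removes exons 2 to 5 of Zfp276. Mice bred for these cultures also received a Rosa26 stopfloxtdTomato allele, and the labels do not say which libraries carried it. Cre was present in Zfp276cko cells only, so Cre, the reporter and the deletion cannot be told apart in this comparison. Zfp276 had 1648 and 2230 normalized counts in ctrl, against 490 and 503 in Zfp276cko cells, which was 25.6% of the ctrl mean. Counted reads per library ranged from 21068322 to 26599809. All 4 pan-oligodendroglial markers were abundant, and summed to 2964 and 2850 CPM (counts scaled to the size of each library) in ctrl, against 2074 and 2124 in Zfp276cko cells. Sox10 had between 17805 and 20744 normalized counts and its genotypes overlapped, as did those of Nkx2-2. Olig1 and Olig2 were at 54.9% and 65.9% of the ctrl mean, and DESeq2 gave them adjusted p-values of 3.43e-07 and 0.00122 (edgeR 0.123 and 0.162). The ctrl replicates differed far more than the Zfp276cko replicates, and 12.6% against 0.307% of 14324 genes were at least 2-fold apart. Summed fibroblast and mural markers came to 413 CPM in ctrl replicate 1 and to between 14.4 and 28.4 in the other 3 libraries.

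In canonical Wnt signalling, a secreted Wnt protein engages a Frizzled receptor and an Lrp co-receptor, which halts the Axin and Apc complex that marks β-catenin for degradation. Stabilized β-catenin then enters the nucleus and activates target genes together with proteins of the TCF/LEF family. Several targets feed back on the pathway and dampen it. In the oligodendroglial lineage Tcf7l2 is known as a marker of newly differentiating oligodendrocytes (OLs), and sustained Wnt signalling is known to delay differentiation of OL precursor cells (OPCs).

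Promoters of Apc, Apcdd1 and Notum were not searched, so the counts of matches given here leave these genes out. Promoter sequences of RefSeq (GRCm38.p6) were used for the other 7 of the 10 genes, with 13 annotated start sites in all. The 250 bases before each start were searched on both strands for TCF words (CTTTGAA and CTTTGAT) and for Sox words (ACAAAG and ACAATG). They were also searched for the Zfp276 binding consensus of the study, which is AAAGGG preceded by A or G and followed by C or T and then by G or T. A TCF word and the Sox word ACAAAG read on the opposite strand share the letters CTTTG and differ in the next letter, so 1 place cannot count as both. TCF words occurred in 0 of the 13 promoters and in 7.48% of all 32851 promoters of the table. Sox words occurred in 3 of the 13 and in 25.2% of all, and the Zfp276 consensus in 1 of the 13 and in 2.23% of all. The 13 are not independent, as some promoters of Lef1 and of Ctnnb1 overlap. All 3 with Sox words belong to Tcf7l2 and Lef1. A match of letters is a description and shows no binding. Shown are the first promoter of Tcf7l2, which holds 2 Sox words, the promoter of Lef1 that holds the Zfp276 consensus, and the promoter of Wif1, the member with the largest difference between genotypes, which holds none of the words. All lie on the plus strand, and capitals mark the matches, of which CATTGT reads ACAATG on the opposite strand.
Tcf7l2, chr19:55741560-55741809: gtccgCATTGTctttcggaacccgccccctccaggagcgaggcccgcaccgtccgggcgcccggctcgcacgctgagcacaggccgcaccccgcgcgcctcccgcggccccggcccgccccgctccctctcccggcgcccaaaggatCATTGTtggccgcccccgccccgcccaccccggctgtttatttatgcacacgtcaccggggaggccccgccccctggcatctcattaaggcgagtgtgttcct
Lef1, chr3:131112541-131112790: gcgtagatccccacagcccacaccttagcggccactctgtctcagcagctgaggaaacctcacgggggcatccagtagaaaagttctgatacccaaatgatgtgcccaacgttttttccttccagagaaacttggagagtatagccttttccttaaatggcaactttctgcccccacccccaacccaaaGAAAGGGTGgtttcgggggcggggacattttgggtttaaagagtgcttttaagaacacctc
Wif1, chr10:121033754-121034003: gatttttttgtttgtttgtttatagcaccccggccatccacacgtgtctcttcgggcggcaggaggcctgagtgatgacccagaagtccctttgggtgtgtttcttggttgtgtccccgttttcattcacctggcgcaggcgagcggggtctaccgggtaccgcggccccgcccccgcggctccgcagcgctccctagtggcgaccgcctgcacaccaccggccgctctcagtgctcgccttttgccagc

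The 10 members spanned a wide range of levels. Levels of different genes are given as CPM divided by the annotated exon length in kilobases, so that long and short genes can be set side by side. Ctnnb1 was highest, between 165 and 181 in the 4 libraries, above 99% of tested genes. Apc followed with 25.2 to 34.2 and Tcf7l2 with 7.75 to 12, and these 3 ranges did not overlap. Axin2 ranged from 3.00 to 4.58, Nkd1 from 1.30 to 3.89, Apcdd1 from 1.20 to 2.91 and Wif1 from 0.517 to 1.58, so that each of these overlapped with its neighbour. Rnf43 (0.0554 to 0.253) and Notum (0.0198 to 0.127) also overlapped, and Lef1 was lowest with at most 0.00827. The order was the same with the length of the longest annotated transcript. On that scale the mean of Tcf7l2 was 21.6 instead of 9.15, as the combined exons of its 22 annotated transcripts are longer than its longest transcript.

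**Figure D1:**
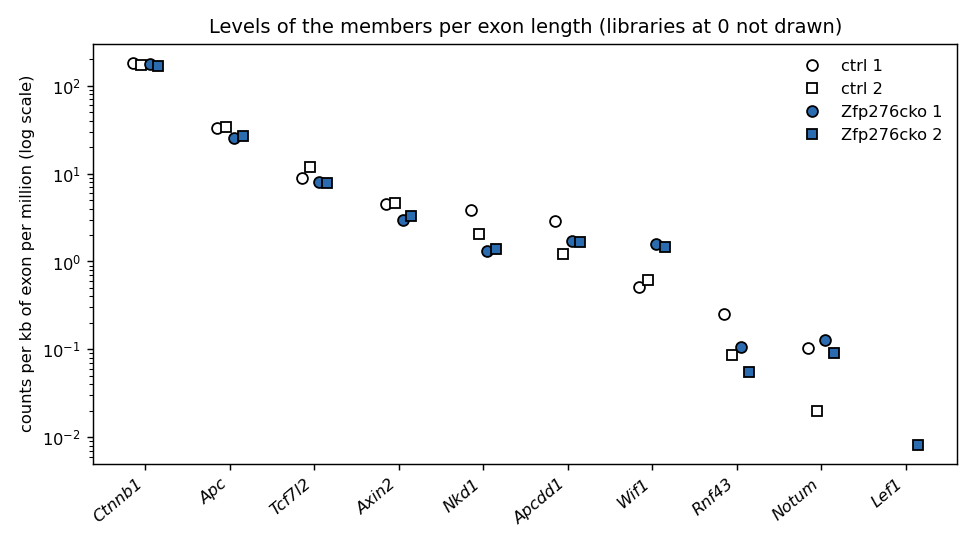
Levels of the 10 members in CPM per kilobase of exon (log axis), ordered by their mean, with 1 point per library (open: ctrl, filled: Zfp276cko, circle: replicate 1, square: replicate 2). Ctnnb1 lies between 165 and 181 and Lef1 has 1 library above 0, at 0.00827.

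Differences between the genotypes were tested with edgeR's quasi-likelihood test over the 15766 genes that passed a filter on low counts. Its p-value after Benjamini-Hochberg adjustment over these genes is given as the edgeR adjusted p, and SE is the standard error of a log2 fold change (Zfp276cko minus ctrl). A gene was called when this p was at most 0.05, the log2 fold change at least 0.6 in size and the mean normalized count at least 20. Of the 10 members, 8 passed the filter, while Lef1 and Notum did not. None was called (0 of 8), and 0% of all tested genes were. An unadjusted p of at most 0.05 was found for 4 of the 8 members, against 15.6% of all tested genes. With the thresholds on fold change and mean as well, these were Nkd1 lower in Zfp276cko cells, against 3.02% of all tested genes, and Wif1 higher, against 5.11%. DESeq2 called 0 of the 8 lower, against 2.27% of the genes for which it gave an adjusted p, and 1 of the 8 higher (Wif1), against 3.02%. The likelihood ratio test of edgeR called 1 of the 8, which was Wif1, against 1.7% of all genes lower and 2.71% higher. With voom 0 of the 8 were called, against 0.457% lower and 0.844% higher. Without ctrl replicate 1, 2 members met the criteria (Nkd1 and Wif1), and without ctrl replicate 2, 4 did (Apcdd1 and Rnf43 as well). Of all genes, 5.76% were called lower and 10.2% higher without ctrl replicate 1, and 7.77% and 10.8% without ctrl replicate 2. In both cases the spread came from the close Zfp276cko replicates alone.

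Both Zfp276cko libraries were lower than either ctrl library for Axin2, Apc, Nkd1 and Tcf7l2. That is 4 of the 8 tested members, against 23.7% of all tested genes. Both lay above both ctrl libraries for Wif1 alone, 1 of the 8 tested members, against 26.8%. The median log2 fold change of the 8 members was −0.38, and that of all tested genes was −0.0013. With 2 libraries against 2, an exact permutation test cannot go below p = 0.333. In such bulk samples, fewer cells that express a gene and less RNA per cell cannot be told apart.

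**Figure D2:**
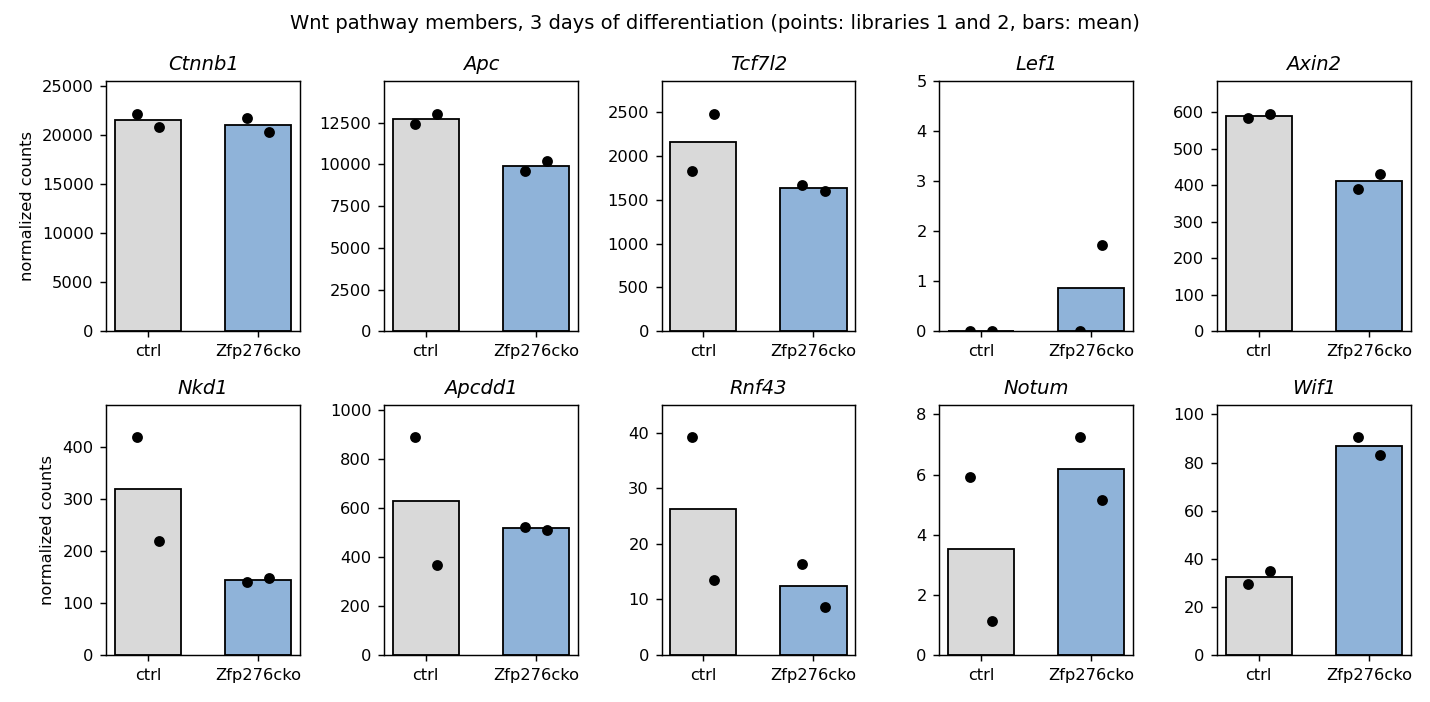
Normalized counts of the 10 members in ctrl and Zfp276cko cells, with 1 point per library and bars for the mean of 2 libraries (each panel has its own linear axis from 0). The points of the genotypes are apart for Apc, Tcf7l2, Axin2 and Nkd1, which are lower in Zfp276cko cells, and for Wif1, which is higher.

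Ctnnb1 encodes β-catenin, which carries the Wnt signal from the membrane to the nucleus and also links cadherins to the cytoskeleton. The gene lies on chromosome 9 of GRCm38, from 120929216 to 120960507. It had 22202 and 20837 normalized counts in ctrl, against 21769 and 20308 in Zfp276cko cells, and the genotypes overlapped. This gave a log2 fold change of −0.03 (SE 0.12, 95% interval −0.36 to 0.29, edgeR adjusted p = 0.924). The interval does not reach the threshold of 0.6 in either direction. Exons of Ulk4 on the opposite strand overlap 14.6% of the exons of Ctnnb1, and the strand setting of the counting is not given in the sources used here. Without ctrl replicate 1 or without Zfp276cko replicate 2 the sign turned, to 0.015 and 0.019.

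Apc, on chromosome 18 from 34220924 to 34322552, encodes the scaffold of the complex that marks β-catenin for degradation. Its normalized counts were 12423 and 13040 in ctrl, against 9601 and 10185 in Zfp276cko cells. The replicates of each genotype were close, and the genotypes did not overlap. With 9893 ± 413 against 12731 ± 437 (SD, n = 2), 77.7% of the ctrl level was found in Zfp276cko cells. That corresponds to a log2 fold change of −0.36 (SE 0.11, edgeR adjusted p = 0.253), and DESeq2 gave an adjusted p of 0.0911.

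Tcf7l2, the TCF factor of newly differentiating OLs, lies on chromosome 19 from 55741820 to 55933654. It had 1826 and 2485 normalized counts in ctrl, against 1672 and 1607 in Zfp276cko cells. Both Zfp276cko libraries were lower than either ctrl library, though the ctrl replicates were further apart from each other than ctrl replicate 1 was from Zfp276cko cells. The log2 fold change of −0.39 (SE 0.17, 95% interval −0.87 to 0.08, edgeR adjusted p = 0.379) became −0.60 without ctrl replicate 1 and −0.17 without ctrl replicate 2. Other markers of newly formed OLs were lower as well. All 10 genes of a list with Bmp4, Enpp6, Gpr17 and Neu4 lay below both ctrl libraries, against 23.7% of all tested genes. The median log2 fold change of the list was −0.82. Summed over the list, levels were 12707 and 12558 CPM in ctrl, against 6845 and 6884 in Zfp276cko cells. By edgeR's quasi-likelihood test 0 of these markers had an adjusted p of at most 0.05. An unadjusted one of that size was found for 8, against 15.6% of all tested genes. DESeq2 gave 7 with an adjusted p of at most 0.05, which also met the thresholds on fold change and mean. With these thresholds it called 2.27% of the genes with an adjusted p lower. The part of these markers in the level of Tcf7l2 was not tested. Markers of myelinating OLs summed to 12753 and 17349 CPM in ctrl, against 8703 and 8895 in Zfp276cko cells. Of these 12 genes 10 lay below both ctrl libraries and 1 above both, against 23.7% and 26.8% of all tested genes. Their median log2 fold change was −0.87. OPC markers summed to 5713 and 5022 CPM in ctrl, against 4019 and 3964 in Zfp276cko cells. The OPC list holds Olig1 and Olig2 as well. Of its 10 genes 7 lay below both ctrl libraries in Zfp276cko cells, against 23.7% of all tested genes. Pdgfra (91.6% of ctrl) and Lhfpl3 (109% of ctrl) were among the genes of this list that overlapped.

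Lef1 (chromosome 3, 131110471 to 131224356) encodes the family member that is often strongly induced by Wnt signalling in other tissues. An antisense gene (Gm43352) overlaps 13.7% of its exons. Here it had 0 counts in both ctrl libraries and 0 and 2 in Zfp276cko cells. All 4 libraries were within the limit of 3 counts that a count of 0 allows, which corresponds to between 0.113 and 0.142 CPM, so no fold change is given. These limits cover counting error only. The other family members were singled out to complete this picture after their values were seen. Tcf7l1 had 14.5 to 18.2 CPM per kilobase of exon and Tcf7 had 0.481 to 0.765. Of the summed level of the 4 family genes, Tcf7l2 made up 37.9% in ctrl and 32.6% in Zfp276cko cells, and Tcf7l1 59.6% and 65.0%. With the longest transcript as length, Tcf7l2 (21.6) and Tcf7l1 (20.7) had similar means, so the order of these 2 genes depends on the length used. The log2 fold changes of Tcf7l1 (−0.05) and Tcf7 (−0.25) came with edgeR adjusted p-values of 0.888 and 0.764.

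Axin2 encodes a component of the degradation complex and is a widely used readout of Wnt activity, since its transcription depends on β-catenin in many cell types. It lies on chromosome 11 from 108920349 to 108950783, where an antisense gene (Gm11670) overlaps 3.8% of its exons. It had 585 and 596 normalized counts in ctrl, against 390 and 432 in Zfp276cko cells. The ctrl replicates were nearly equal, and both Zfp276cko libraries were lower. With 411 ± 29.8 against 591 ± 7.83 (SD, n = 2), 69.6% of the ctrl level was found in Zfp276cko cells. The log2 fold change was −0.52 (SE 0.13, 95% interval −0.88 to −0.16, edgeR adjusted p = 0.210). It was between −0.60 and −0.45 when each library was left out in turn, so that no single library decided its direction. DESeq2 gave an adjusted p of 0.113.

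Nkd1, on chromosome 8 from 88521354 to 88594884, encodes a Dishevelled-binding feedback inhibitor. It had 419 and 219 normalized counts in ctrl, against 140 and 149 in Zfp276cko cells. Both Zfp276cko libraries were below both ctrl libraries, but the ctrl replicates were 1.91-fold apart. The log2 fold change of −1.14 (SE 0.37, edgeR adjusted p = 0.278) shrank to −0.60 when ctrl replicate 1 was left out and reached −1.55 when ctrl replicate 2 was. DESeq2 gave −1.16 with an adjusted p of 0.0844.

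Apcdd1 and Rnf43 also differed mainly between the ctrl replicates. Apcdd1 (chromosome 18, 62922231 to 62961179) encodes a membrane protein that binds Wnt proteins and Lrp5 and inhibits signalling. It had 887 and 366 normalized counts in ctrl, against 520 and 511 in Zfp276cko cells, so that both Zfp276cko libraries lay between the ctrl libraries. Its log2 fold change of −0.28 (SE 0.45, edgeR adjusted p = 0.806) turned to 0.50 without ctrl replicate 1 and was −0.80 without ctrl replicate 2. Rnf43 (chromosome 11, 87662722 to 87735539) encodes a ubiquitin ligase that removes Frizzled receptors from the cell surface. It had only 33 and 12 counts in ctrl, against 18 and 10 in Zfp276cko cells, and the genotypes overlapped. The log2 fold change was −1.07 (SE 0.69, 95% interval −2.94 to 0.79), with −0.13 when ctrl replicate 1 was left out and −1.67 when ctrl replicate 2 was.

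Ctrl replicate 1 was thus the higher ctrl library for Nkd1, Apcdd1 and Rnf43, by 1.91-fold, 2.43-fold and 2.90-fold. In the same library the 10 fibroblast and mural markers were 14.6-fold higher in sum than in ctrl replicate 2, led by Col1a2 with 2703 against 41.6 normalized counts and Col1a1 with 2522 against 63.0. All 10 of these markers had a count in at least 1 library. Summed microglia markers were 1.95-fold higher in ctrl replicate 1 than in ctrl replicate 2, with 2366 against 1217 CPM, and were 1669 and 1743 in Zfp276cko cells. Single microglia markers differed in direction, as Csf1r was 6.17-fold higher in ctrl replicate 1, but Aif1 was lower there with 1248 against 3204 normalized counts. Summed endothelial markers ranged from 67.3 to 88.1 CPM in the 4 libraries, and Cldn5 was at 0 in all of them. Summed astrocyte markers ranged from 1232 to 1596 CPM and ependymal markers from 6.40 to 20.1. Summed neuronal markers ranged from 663 to 1061 CPM, of which Map2 made up most. Several others were far lower in ctrl replicate 1 than in the other 3 libraries. Gad1 had 78.4 normalized counts there, against 2002 in ctrl replicate 2 and 920 and 1003 in Zfp276cko cells, and Syt1 had 33.2, against 874, 342 and 351. The part of other cell types in the levels of Nkd1, Apcdd1 and Rnf43 was not tested. Axin2, Apc, Tcf7l2 and Wif1 were not higher in ctrl replicate 1 than in ctrl replicate 2.

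**Figure D3:**
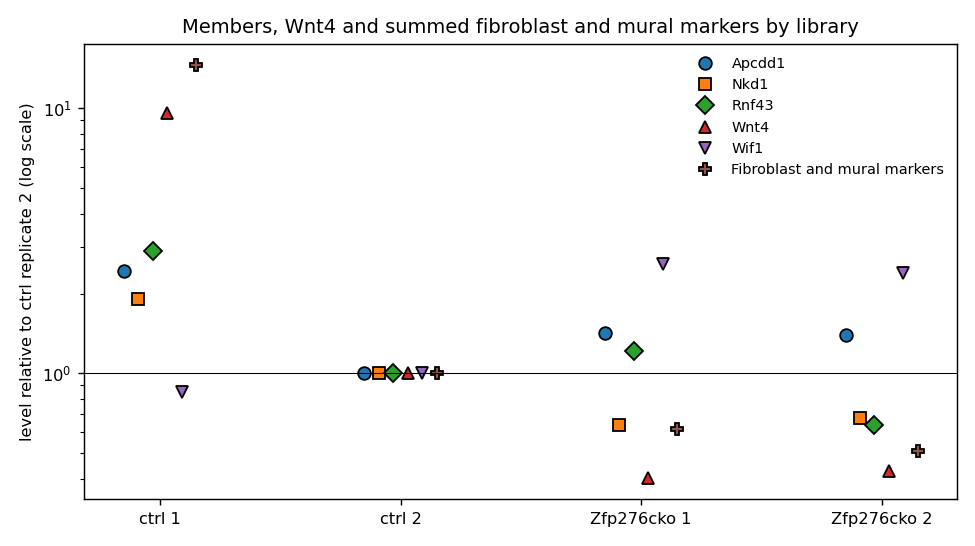
Levels of Apcdd1, Nkd1, Rnf43, Wif1 and Wnt4 (normalized counts) and of the 10 summed fibroblast and mural markers (CPM) in each library, relative to ctrl replicate 2 (log axis). Ctrl replicate 1 is the highest library for Apcdd1 (2.43), Nkd1 (1.91), Rnf43 (2.90), Wnt4 (9.56) and the summed markers (14.6), but not for Wif1 (0.851).

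Notum (chromosome 11, 120653788 to 120661175, minus strand) encodes an enzyme that inactivates Wnt proteins by removing their lipid. It had 5 and 1 counts in ctrl, against 8 and 6 in Zfp276cko cells, which is too few for the filter. Exons of Notumos on the opposite strand overlap 29.4% of its exons, which adds to the uncertainty of so few counts. Without a filter its edgeR adjusted p was 0.740.

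Wif1 encodes a secreted inhibitor that binds Wnt proteins outside the cell, and it lies on chromosome 10 from 121033960 to 121100650. It had 29.7 and 34.9 normalized counts in ctrl, against 90.5 and 83.3 in Zfp276cko cells. Both Zfp276cko libraries were far above both ctrl libraries, and the replicates of each genotype were close. The mean was 86.9 ± 5.05 against 32.3 ± 3.68 (SD, n = 2), which is 2.69-fold higher. On the log2 scale the difference was 1.425 (SE 0.27, 95% interval 0.70 to 2.15, edgeR adjusted p = 0.162). DESeq2 (1.41, adjusted p = 0.0478) and the likelihood ratio test (adjusted p = 0.0210) called it higher, while voom did not (adjusted p = 0.220). Leaving out any 1 library gave values between 1.31 and 1.53. The level is low, with 25 to 100 counts per library.

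**Figure D4:**
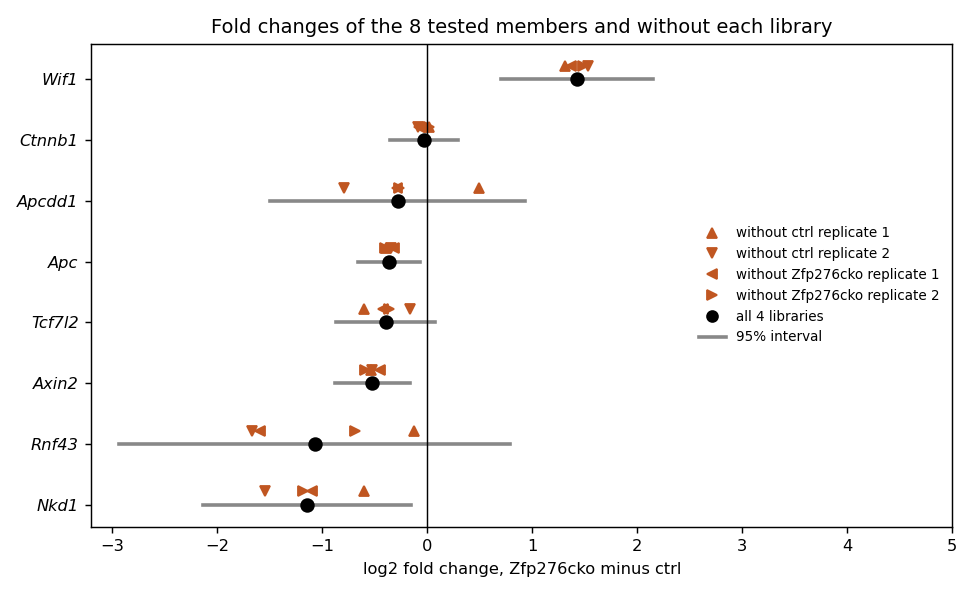
Log2 fold changes (Zfp276cko minus ctrl) of the 8 tested members with all 4 libraries (black, with the 95% interval in grey) and without each library (orange). Wif1 stays above 1.3 and Axin2 below −0.4 throughout, while Apcdd1 runs from −0.80 to 0.50 and Rnf43 from −1.67 to −0.13.

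The profile over the 4 libraries was compared between genes by the Euclidean distance of log2 normalized counts, centred on each gene, over 14323 other genes. Among the genes closest to Tcf7l2 were Apbb1 (distance 0.0182), Sap18b (0.0485), Zfp740 (0.0490) and Ybx1 (0.0490). These 4 had their highest level in ctrl replicate 2, as Tcf7l2 did, and log2 fold changes between −0.45 and −0.37. This follows from how they were picked and is no separate result. Closest to Wif1 were Sema3f (0.0842), C130026I21Rik (0.0948), Atf3 (0.144), Tpd52l1 (0.147) and Gm7887 (0.155). Atf3, a stress-induced transcription factor, had 711 and 935 normalized counts in ctrl, against 2177 and 2173 in Zfp276cko cells. With 4 libraries, such likeness describes these libraries only.

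The rest of the pathway was represented by 108 further genes, of which 82 were tested. Of these, 0 were called by edgeR's quasi-likelihood test, against 0% of all tested genes. Its unadjusted p was at most 0.05 for 13 of the 82, against 15.6% of all tested genes. DESeq2 called 4 lower and 3 higher, against 2.27% and 3.02% of the genes for which it gave an adjusted p. The likelihood ratio test called 4 in all, against 1.7% of all tested genes lower and 2.71% higher. With voom 2 were called, against 0.457% lower and 0.844% higher. Both Zfp276cko libraries were lower than either ctrl library for 27 of the 82 (32.9%) and above both for 14 (17.1%), against 23.7% and 26.8% of all tested genes. The median log2 fold change was −0.10. The ctrl replicates were at least 2-fold apart for 16 of the 82 genes, and the Zfp276cko replicates for 0.

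Of 19 Wnt ligands, 12 were too low to be tested, and 3 of these had no count in any library. The 7 tested ligands had log2 fold changes from −3.64 to −0.0095, with a median of −0.39 against −0.0013 for all tested genes. Among the ligands not tested, which had at most 7 counts in any library, Wnt2b, Wnt6 and Wnt10b lay above both ctrl libraries and Wnt2 below both. Below both ctrl libraries lay 4 (57.1%), against 23.7% of all tested genes, and above both lay 0, against 26.8%. Among these 4 is Wnt4, which the filter kept only through its ctrl libraries. Wnt3 and Wnt9a, also among them, had 26 to 56 counts per library. The study reported that Zfp276 bound an enhancer of Wnt7a in gel shift assays and in chromatin immunoprecipitation from a cell line. In its reporter assays Zfp276 lowered the activation of this enhancer by Sox10. Here Wnt7a had 135 and 300.5 normalized counts in ctrl, against 176 and 162 in Zfp276cko cells. The Zfp276cko libraries lay between the ctrl libraries (log2 fold change −0.37, SE 0.43, edgeR adjusted p = 0.730), and the value ran from −0.83 when ctrl replicate 1 was left out to 0.31 when ctrl replicate 2 was. Wnt7b had 167 and 311 normalized counts in ctrl, against 142 and 143 in Zfp276cko cells, with a log2 fold change of −0.74 that moved to −1.12 when ctrl replicate 1 was left out and to −0.24 when ctrl replicate 2 was. Wnt5a, with 58.2 and 388 in ctrl, against 216 and 228 in Zfp276cko cells, took opposite signs depending on the ctrl library left out (log2 fold change −0.81 without replicate 1, 1.92 without replicate 2). Wnt4 had 172 and 18 normalized counts in ctrl, against 7.24 and 7.73 in Zfp276cko cells. With 145 and 16 counts in ctrl, against 8 and 9 in Zfp276cko cells, Wnt4 passed the filter only through the ctrl libraries. The log2 fold change was −3.64 (edgeR adjusted p = 0.293), and −1.25 without ctrl replicate 1. DESeq2 called Wnt4 lower (adjusted p = 0.0178) and so did the likelihood ratio test (0.0464), but voom did not (0.205). Wls, which carries Wnt proteins to the cell surface, and Porcn, which attaches their lipid, had log2 fold changes of −0.28 and −0.07. Wls ran from −0.58 to 0.07 with a library left out.

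All 20 receptor and co-receptor genes were tested. Both Zfp276cko libraries were lower than either ctrl library for 7 (35%) and higher than either for 3 (15%). The shares over all tested genes were 23.7% and 26.8%. Reck, which forms a receptor complex for Wnt7a and Wnt7b, had 167 and 188 normalized counts in ctrl, against 317 and 301 in Zfp276cko cells. This is a log2 fold change of 0.80 (SE 0.17, edgeR adjusted p = 0.183), and DESeq2 called it higher (adjusted p = 0.0455). Adgra2, of the same list, went the other way, with 133 and 75.4 normalized counts in ctrl, against 52.5 and 48.1 in Zfp276cko cells. Its log2 fold change was −1.05 (edgeR adjusted p = 0.31). Lgr5, a receptor for R-spondins and itself a Wnt target, had 95 and 129 normalized counts in ctrl, against 43.4 and 49.0 in Zfp276cko cells (log2 fold change −1.28, adjusted p = 0.186). DESeq2 gave an adjusted p of 0.0513. Among the abundant receptors, Fzd3 was at −0.23 with both Zfp276cko libraries lower, and Lrp6 at −0.28 with libraries that overlapped and values from −0.55 to 0.05 with a library left out. Fzd10 (−1.05) and Ror2 (0.63) had low counts and moved to −0.23 and 0.19 without ctrl replicate 1, and to −1.59 and 1.27 without ctrl replicate 2.

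Among the 11 tested genes listed as secreted and membrane inhibitors, 4 (36.4%) lay above both ctrl libraries, against 26.8% of all tested genes. Below both lay 1 (9.09%), against 23.7%, which was Znrf3 (−0.23), the paralog of Rnf43. Draxin, an axon guidance protein that also inhibits Wnt signalling, had 395 and 295 normalized counts in ctrl, against 619 and 616 in Zfp276cko cells. Its log2 fold change was 0.84 (SE 0.19, edgeR adjusted p = 0.189), and DESeq2 called it higher (adjusted p = 0.0305). Bambi is also among the 4, but it is known as a pseudoreceptor for TGFβ and BMP ligands rather than as a Wnt inhibitor. It had 141 and 258 in ctrl, against 373 and 343 in Zfp276cko cells (0.84, adjusted p = 0.347, and between 0.47 and 1.33 with a ctrl library left out). Sfrp2 had 1.19 normalized counts in ctrl replicate 1 and between 48.4 and 58.4 in the other 3 libraries, so that the value of 1.195 dropped to 0.24 once ctrl replicate 1 was left out and was 5.44 without ctrl replicate 2. Sfrp1 (0.14), Kremen1 (−0.01) and Shisa2 (−0.20) had genotypes that overlapped.

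**Figure D5:**
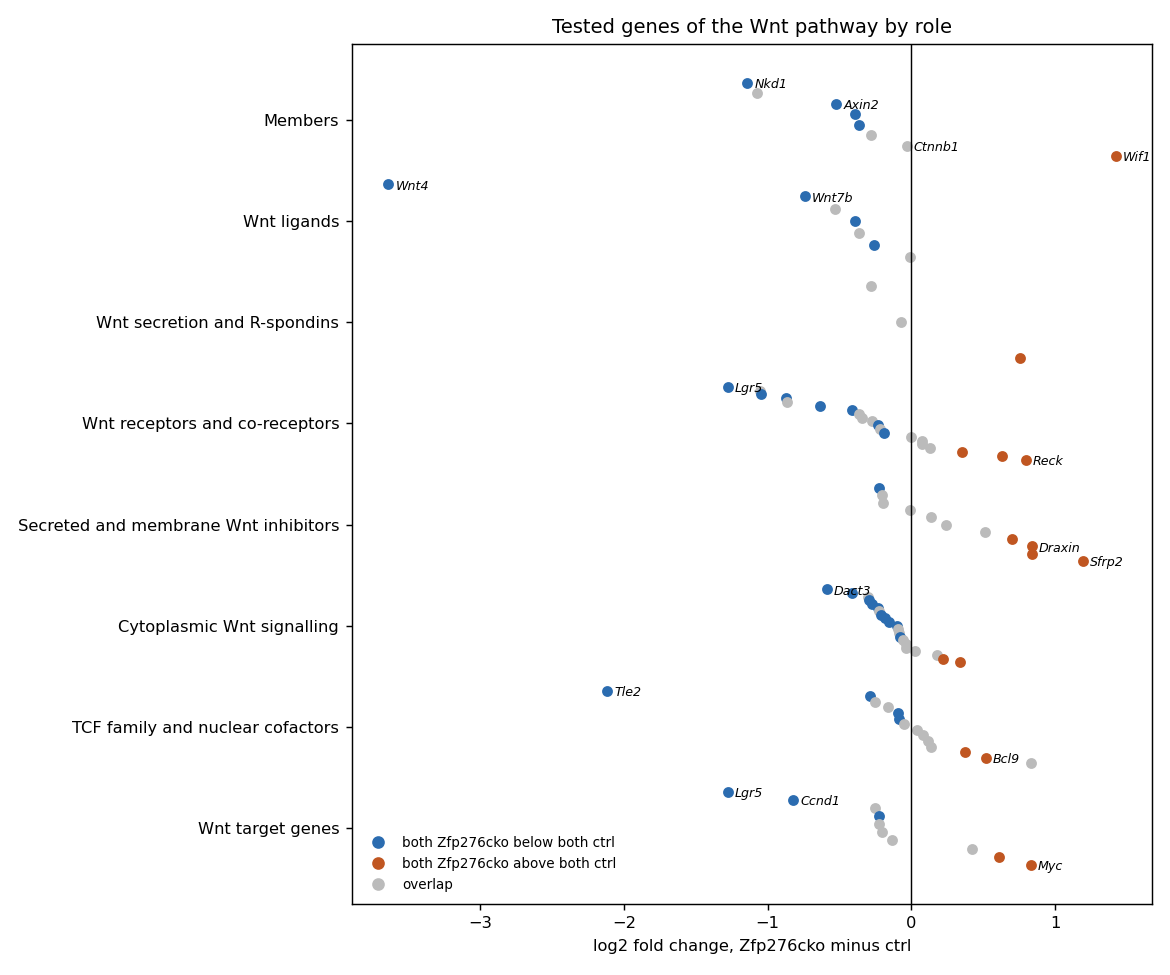
Log2 fold changes (Zfp276cko minus ctrl) of the tested members and of the tested genes of each role in the Wnt pathway, 1 point per gene, coloured by whether both Zfp276cko libraries lay below (blue) or above (orange) both ctrl libraries or overlapped with them (grey). Tle2 (−2.12) and Wnt4 (−3.64) lie furthest to the left and Wif1 (1.425) furthest to the right.

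In the cytoplasm, 10 of 21 genes (47.6%) were below both ctrl libraries and 2 (9.52%) were above them. The shares over all tested genes were 23.7% and 26.8%. The log2 fold changes of the 21 genes had a narrow range from −0.59 to 0.34. Dact3, which inhibits Dishevelled, had 1466 and 1401 normalized counts in ctrl, against 914 and 993 in Zfp276cko cells. This amounts to a log2 fold change of −0.59 (SE 0.10, edgeR adjusted p = 0.139), and DESeq2 called it lower (−0.60, adjusted p = 0.0117). Daam2, a formin that enhances Wnt receptor signalling in OPCs, had 665 and 780 in ctrl, against 546 and 540 in Zfp276cko cells (−0.41, adjusted p = 0.293). Apc2, the neural paralog of Apc, had 5323 and 6452 in ctrl, against 7528 and 7362 in Zfp276cko cells. The value of 0.34 (edgeR adjusted p = 0.345) was opposite in sign to that of Apc, and the difference between the paralogs was not tested. Without ctrl replicate 1 the value of Apc2 was 0.21. Amer1 (0.22), Csnk1a1 (−0.04) and Tnks2 (−0.27) completed the named genes of this group, and without ctrl replicate 1 Amer1 was at 0.081 and Tnks2 at −0.05.

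Of the 14 tested TCF factors and nuclear cofactors, 4 (28.6%) were lower and 2 (14.3%) higher in both Zfp276cko libraries than in either ctrl library. The shares over all tested genes were 23.7% and 26.8%. The furthest from 0 of the 14 was Tle2, a corepressor of the Groucho family that binds TCF proteins. It had 970 and 1261 normalized counts in ctrl, against 275 and 240 in Zfp276cko cells. Both Zfp276cko libraries were well below both ctrl libraries, and the log2 fold change was −2.12 (SE 0.19, edgeR adjusted p = 0.0962). DESeq2 (adjusted p = 3.99e-15), the likelihood ratio test and voom (adjusted p = 0.0167) called it lower, and the value lay between −2.29 and −1.93 when each library was left out. Its relatives Tle4 (−0.29) and Tle5, listed as Aes (−0.16), were closer to 0, and Tle4 was at −0.48 when ctrl replicate 1 was left out and at −0.084 when ctrl replicate 2 was. Bcl9, a coactivator of β-catenin, had 748 and 1014 in ctrl, against 1203 and 1319 in Zfp276cko cells (0.52, adjusted p = 0.305, and 0.32 without ctrl replicate 1). Chd8 was at −0.08, and Sox7 (0.83) was at 0.04 without ctrl replicate 1 and 2.73 without ctrl replicate 2.

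Of 14 known Wnt targets, Lgr5 and Znrf3 included, 10 were tested. Their median log2 fold change was −0.22, against −0.0013 for all tested genes. Below both ctrl libraries lay 3 (30%) and above both lay 2 (20%), against 23.7% and 26.8% of all tested genes. Ccnd1, which encodes cyclin D1, had 5447 and 4291 normalized counts in ctrl, against 2699 and 2800 in Zfp276cko cells. In log2 terms the difference was −0.82 (SE 0.15, edgeR adjusted p = 0.158), and DESeq2 called it lower (adjusted p = 0.00129). Myc had 2661 and 2799 normalized counts in ctrl, against 4760 and 4949 in Zfp276cko cells. Its log2 fold change was 0.83 (SE 0.09, edgeR adjusted p = 0.110), and DESeq2 (adjusted p = 1.69e-06) and voom (adjusted p = 0.0426) called it higher. Tnfrsf19 had 842 normalized counts in ctrl replicate 1 and between 2624 and 2674 in the other 3 libraries, and the value of 0.61 became 0.02 once ctrl replicate 1 was left out and 1.64 without ctrl replicate 2. Interferon response genes, of which 10 were listed, were also higher in Zfp276cko cells, with summed levels of 290 and 132 CPM in ctrl, against 2891 and 2842 in Zfp276cko cells. Their part in the levels of Myc, Wif1 or Draxin was not tested.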

How the data were processed

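RNA-Seq was analysed for 2 ctrl and 2 Zfp276cko libraries of 1° mouse OGCs. The authors prepared stranded mRNA libraries, mapped single-end reads to mm10 with STAR 2.5.4a and deposited whole-number counts of reads per gene symbol, without normalization. The paper's methods name HTSeq for counting, the submitters' processing notes name featureCounts 1.5.1, and the strand setting is not given in the sources used here.

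Members and gene lists were chosen with earlier results of these data known. Genes were filtered with filterByExpr, normalized with TMM and compared with edgeR 4.0.16 (glmQLFit and glmQLFTest, R 4.3.3) with Benjamini-Hochberg adjustment over all 15766 tested genes. Normalized counts are scaled to the mean effective library size, and SD refers to 2 libraries. Standard errors are the log2 fold change divided by the root of the F statistic. Counted reads ranged from 21068322 to 26599809 per library, and intervals of fold changes rest on 2 libraries per genotype. The code was tested on simulated counts. Alternatives were DESeq2 1.42.0 and its size factors, other filters, the likelihood ratio test, limma 3.58.1 (voom with weights per genotype), a replicate block, an unadjusted p and leaving out each library.

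Exon lengths and positions came from GENCODE M21 (GRCm38, the build of the deposited counts), and promoters from RefSeq (GRCm38.p6). Tle5 is listed as Aes. All members were named. Of the other Wnt genes, named were the 2 with the largest difference in each direction and the 2 with the most counts in each list (mean of at least 20 normalized counts), those called by a test, and Wnt7a. Tcf7, Tcf7l1, Adgra2 and some ligands with low counts were named in addition. Named as well were the genes closest in profile to Tcf7l2 and to Wif1, of which 1 is not reported here. Protein sequences were not used here.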

Additional observations from a re-analysis of the deposited data

How the results depend on the processing

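With 2 libraries per genotype and unequal replicates, the counts of calls depended on the test. Lower and higher genes called in Zfp276cko cells numbered 0 and 0 with edgeR's quasi-likelihood test, 0 and 8 without a filter, 338 and 449 with DESeq2, 268 and 428 with the likelihood ratio test, 72 and 133 with voom, and 476 and 806 with an unadjusted p. Leaving out 1 library gave between 0 and 1286 lower and between 0 and 1792 higher genes. The highest counts came without a ctrl library, where the spread rests on the close Zfp276cko replicates and the lone ctrl library is assumed to vary like them. Called members numbered 1 with DESeq2 and with the likelihood ratio test (Wif1), 2 with an unadjusted p, and between 0 and 4 with a library left out. Their median log2 fold change of −0.38 was −0.355 without a filter and between −0.43 and −0.26 with a library left out.

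Of 42 tested genes named by the rules above, 42 kept their sign and their side of the threshold with the size factors of DESeq2. Genes named in addition to the rules are not among them. The sign of Wnt5a turned without a filter (0.016), with at least 10 counts in every library (0.00094), with voom (0.53) and with the replicate block (0.51). Kremen1 turned without a filter (0.013) and with at least 10 counts in every library (0.0011). That filter removed Wnt4, Sfrp2 and Sox7, so they have no value under it. With a library left out, signs turned for 12 genes. The log2 fold changes then ran from −0.0914 to 0.0188 for Ctnnb1, −0.796 to 0.497 for Apcdd1, −0.805 to 1.92 for Wnt5a, −0.83 to 0.305 for Wnt7a, −0.578 to 0.0656 for Wls and −0.149 to 0.00553 for Porcn. They ran from −0.553 to 0.0469 for Lrp6, −0.474 to 0.11 for Shisa2, −0.142 to 0.465 for Sfrp1, −0.0897 to 0.0597 for Kremen1, −0.0946 to 0.0221 for Csnk1a1 and −0.368 to 0.061 for Aes.

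Deviations of same-numbered libraries from their group means were uncorrelated (r = 0.00637 across 14324 genes, which are not independent). The Zfp276cko replicates were close, with a median gap of 0.0867 on the log2 scale against 0.291 in ctrl. Their deviations are therefore small, and this value cannot decide whether replicate numbers pair the libraries. With a replicate block 0 genes were called in either direction, the median of the members was −0.371, and 41 of the 42 named genes kept their sign and their side of the threshold.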
